A study of Mus musculus with 8 samples.

Results

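Malat1 and Neat1 are a pair of long noncoding RNAs that stay in the nucleus, and they are 2 of the 19879 gene names counted in this series. They were taken as the rows of those names in every library, and both rows were present in all 8 libraries. The study profiled sorted progenitors of mouse bone marrow one by one with CEL-Seq2, which copies RNA from the 3′ end with an oligo(dT) primer and counts molecular identifiers per gene and well. The groups were heterozygous HSC, wild type HSC, heterozygous plate2 and wild type plate2, with 2 libraries each. Heterozygous mice carried 1 functional copy of Mof (Kat8), which encodes a histone acetyltransferase, and wild type mice carried no such change. The labels give no age, no strain, no description of the Mof allele and no gate for a plate2 well, and the series text lists 8 sort gates from haematopoietic stem cells (HSC) to erythroid, granulocyte-monocyte and megakaryocyte progenitors. Whether the libraries of a group stem from different animals is not stated, and the p-values therefore speak only of the spread between libraries, which may be technical.

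Malat1 lies at nuclear speckles, bodies rich in splicing factors, and is among the abundant nuclear RNAs of most mammalian tissues. Neat1 is the scaffold of paraspeckles, bodies that form around its long isoform and hold RNA binding proteins such as Sfpq and Nono, while a short polyadenylated isoform shares its 5′ end. The 3′ ends of Malat1 and of long Neat1 are not made by polyadenylation. In both, RNase P cuts off a small tRNA-like RNA, and an encoded run of A folds back onto U-rich stretches to protect the new end.

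Both genes are annotated as lincRNA on the minus strand of chromosome 19 in GENCODE vM21 (build GRCm38, also called mm10), Malat1 at chr19:5795690-5802672 and Neat1 at chr19:5824708-5845478. A gap of 22035 bases separates them. Malat1-201 is 6983 nucleotides long, Neat1-201, the long isoform, 20771 and Neat1-202, the short isoform, 3004. The deposited counts have 1 row per gene, so the isoforms of Neat1 could not be told apart. The stretches of 120 bases that follow are shown because an oligo(dT) primer can meet A-rich RNA there, 5′ to 3′ in the sense of the RNA. In the first 2, capitals mark the 11 bases that end Neat1-201 and recur in Malat1-201, where 292 further annotated bases follow. In the last 2, the annotated ends of Malat1-201 and Neat1-202, capitals mark the polyadenylation signal AATAAA nearest the end.
Malat1-201, chr19:5795982-5796101, minus strand: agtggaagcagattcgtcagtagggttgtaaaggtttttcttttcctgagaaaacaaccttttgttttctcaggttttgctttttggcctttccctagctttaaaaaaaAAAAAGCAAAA
Neat1-201, chr19:5824708-5824827, minus strand: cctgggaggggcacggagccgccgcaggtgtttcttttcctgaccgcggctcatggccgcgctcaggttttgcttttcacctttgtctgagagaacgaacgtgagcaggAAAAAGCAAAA
Malat1-201, chr19:5795690-5795809, minus strand: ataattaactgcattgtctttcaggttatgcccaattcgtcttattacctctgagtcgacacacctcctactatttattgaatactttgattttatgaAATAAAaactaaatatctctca
Neat1-202, chr19:5842307-5842426, minus strand: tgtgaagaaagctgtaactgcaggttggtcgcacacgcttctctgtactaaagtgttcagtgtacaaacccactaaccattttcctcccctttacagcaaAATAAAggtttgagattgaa
The shared word AAAAAGCAAAA, searched on the transcript strand, occurred in 618 of 141767 annotated transcripts (0.436%), and 9 of them ended in it. The run of A in Malat1-201 that it closes is 12 bases long, the longest in that transcript, while the longest run in Neat1-201 is 7 bases. Reads were not used here, so which of these ends was primed is unknown.

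Barcodes with 1000 or more transcripts of named genes were kept as wells with a cell, 436 of 1536 in all, with 68 and 68 in the heterozygous HSC libraries, 50 and 46 in wild type HSC, 48 and 46 in heterozygous plate2 and 65 and 45 in wild type plate2. Kept wells of a library summed to between 99312 and 734550 transcripts, and the median well held 1567 to 2979 transcripts in HSC libraries and 8082 to 12530 in plate2 libraries. Most transcripts of a library lay in its own set of 96 barcodes, and libraries of a set that used the same 96 shared 24 to 32 kept barcodes. Another 19 kept barcodes lay outside the library's own set, and each of the 19 was also kept in another library of its set. Stem cell markers made up 0.308% to 0.396% of transcripts in HSC libraries and 0.0409% to 0.0891% in plate2 libraries. Kat8 was counted 1 and 2 times in the heterozygous HSC libraries, against 1 and 2 times in the wild type HSC libraries, and 9 and 12 times in the heterozygous plate2 libraries, against 10 and 4 times in the wild type plate2 libraries, too few to check the genotype labels.

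Malat1 was most abundant in the heterozygous HSC libraries, where it took 0.676% and 0.701% of all transcripts. In the wild type HSC libraries it took 0.499% and 0.324%, in the heterozygous plate2 libraries 0.328% and 0.271%, and in the wild type plate2 libraries 0.285% and 0.484%. The heterozygous HSC libraries therefore stood above all 6 others, and the libraries of the other 3 groups overlapped. As means these are 0.688% ± 0.0183 in heterozygous HSC, 0.412% ± 0.124 in wild type HSC, 0.384% ± 0.141 in wild type plate2 and 0.300% ± 0.0403 in heterozygous plate2 (SD, n = 2 each), and the neighbours below the first in this order differ by less than their spread. Counting error was of the size of that spread in heterozygous HSC, where the intervals of the libraries, 0.643% to 0.709% and 0.665% to 0.739%, overlap. In wild type HSC it was smaller: the 334 transcripts of wild type HSC library 2, the lowest count, give an exact 95% binomial interval of 0.290% to 0.361%.

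Neat1 was counted only 7 to 66 times per library. It took 0.0221% and 0.0328% of transcripts in the heterozygous HSC libraries, 0.0191% and 0.00679% in the wild type HSC libraries, 0.00539% and 0.00708% in the heterozygous plate2 libraries, and 0.00804% and 0.0118% in the wild type plate2 libraries. Here too both heterozygous HSC libraries were highest, although the interval of the first, 0.0166% to 0.0288%, overlaps that of wild type HSC library 1, 0.0115% to 0.0299%. The 7 transcripts of wild type HSC library 2 lay in 7 wells and give an interval of 0.00273% to 0.0140%. Intervals here cover counting error only.

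**Figure D1:**
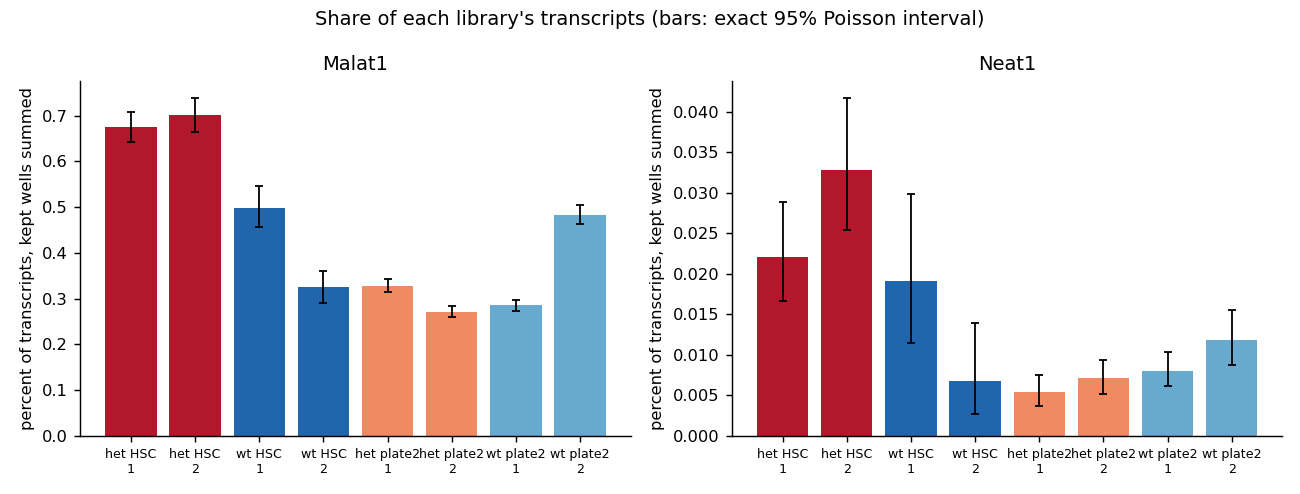
Share of each library's transcripts from kept wells (percent, linear axes from 0) for Malat1 and Neat1. Each library has 1 bar with the exact 95% binomial interval of its share (labelled Poisson in the figure title). For both genes the bars of the 2 heterozygous HSC libraries are the tallest, at 0.676% and 0.701% for Malat1 and 0.0221% and 0.0328% for Neat1.

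In transcripts per well the order was another one, because plate2 wells were deeper. Malat1 gave 24 and 21 transcripts per well in heterozygous HSC libraries, 9.9 and 7.3 in wild type HSC libraries, 43 and 40 in heterozygous plate2 libraries and 32 and 46 in wild type plate2 libraries. Neat1 stayed at or below about 1 transcript per well, between 0.152 in wild type HSC library 2 and 1.11 in wild type plate2 library 2. At least 1 Malat1 transcript was counted in 91.1% to 100% of the kept wells of a library and at least 1 Neat1 transcript in 15.2% to 57.4%. With each well thinned to 1000 transcripts, those shares were 81.5% to 100% for Malat1 and 8.33% to 29.4% for Neat1. Among barcodes under 1000 transcripts outside a library's own set, which held a median of 102.6 to 196.1 transcripts, 26.04% to 59.4% had Malat1 and 1.04% to 5.26% had Neat1.

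The first comparison asks whether losing 1 copy of Mof moves either RNA in the HSC libraries, where 0.0149% of the 6690 genes tested passed edgeR's quasi-likelihood test (Benjamini-Hochberg adjusted p under 0.05). Neither passed. Malat1 had a log2 fold change, heterozygous over wild type, of 0.68 ± 0.27 (SE, adjusted p = 0.376) and Neat1 of 1.01 ± 0.43 (adjusted p = 0.403), with both heterozygous libraries above both wild type libraries for each gene. Their 95% intervals, 0.12 to 1.23 and 0.13 to 1.90, leave a wide range of sizes. Both values varied with the wild type HSC library left out. Without library 1 of that group they were 1.08 and 1.99, and without library 2 they were 0.48 and 0.53, and none of these passed. Depth and mitochondrial share also differed by genotype here, with a median well of 2923 and 2979 transcripts in heterozygous libraries, against 1601 and 1567 in wild type libraries, and with 14.8% and 14% mitochondrial transcripts in heterozygous libraries, against 15.7% and 18.03% in wild type libraries. With wells thinned to 1000 transcripts the values were 0.50 for Malat1 (adjusted p = 0.343) and 0.78 for Neat1 (adjusted p = 0.505). Mature neutrophil markers made up 0.108% and 0.207% of transcripts in heterozygous libraries, against 0.529% and 0% in wild type libraries, with 8 of 9 log2 fold changes negative. Erythroid markers made up 0.392% and 0.176% in heterozygous libraries, against 1.72% and 0.336% in wild type libraries, with 9 of 12 negative. Over all genes tested, 51.7% of log2 fold changes were positive. In wild type HSC library 1, erythroid markers were at 7.16% in the 10 wells of position 4 (positions are described further on). None of these markers passed, and their part in the values was not tested. Wells of at least 2000 transcripts alone brought Malat1 past the threshold, with 1.28 (adjusted p = 0.0486), against a range of adjusted p from 0.0486 to 0.640 over all 21 alternatives.

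In the plate2 libraries the values pointed the other way, and 0.553% of genes passed. Malat1 had a log2 fold change of -0.50 ± 0.26 (adjusted p = 0.989) and Neat1 of -0.77 ± 0.36 (adjusted p = 0.952), so neither passed, and for Malat1 the libraries of the genotypes overlapped. Without wild type plate2 library 2, the library with the highest plate2 share of both RNAs, the Malat1 value was -0.05. At positions 6 and 7 alone, described further on, the Neat1 value was 0.08. All 7 mature neutrophil markers that passed in this comparison were lower in heterozygous libraries, as were 0.523% of all genes. The 9 listed mature neutrophil markers together summed to 0.0297% and 0.00177% of transcripts in heterozygous libraries, against 0.262% and 0.202% in wild type libraries. Their part in the values of Malat1 and Neat1 was not tested. Predicted gene models, named Gm and a number, made up 11.6% and 9.35% of transcripts in heterozygous libraries. In wild type libraries they made up 17.9% and 21.3%. Without these models 8 genes passed, against 37 with them, and Malat1 and Neat1 again did not pass.

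Set against each other, the genotype effects of the 2 sets differed by -1.17 ± 0.37 on the log2 scale for Malat1 and by -1.79 ± 0.56 for Neat1 (plate2 minus HSC). Unadjusted p-values were 0.00484 and 0.00425 in edgeR's quasi-likelihood test, but adjusted over all genes they were 0.372 and 0.351. No gene (0%) passed this test, while 607 had an unadjusted p under 0.05, and DESeq2 passed none either. Without 1 library the difference ran from -1.55 (without wild type HSC library 1) to -0.75 (without wild type plate2 library 2) for Malat1 and from -2.74 (without wild type HSC library 1) to -1.27 (without wild type HSC library 2) for Neat1. Over both sets the genotype effect was 0.08 ± 0.24 for Malat1 (adjusted p = 0.997) and -0.0028 ± 0.27 for Neat1 (adjusted p = 0.999), and 0.135% of genes passed. The same question asked of the shares gave means of 0.494% in heterozygous and 0.398% in wild type libraries for Malat1 and of 0.0169% and 0.0114% for Neat1, with p = 0.389 and p = 0.5 in an exact two-sided permutation test of genotype labels within sets (smallest possible p = 0.0556, so this design cannot reach 0.05).

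Plate2 libraries were set against HSC libraries within each genotype, where cell type, depth and plate change together and cannot be told apart. In heterozygous libraries both RNAs were lower in plate2, Malat1 by a log2 fold change of -1.01 ± 0.26 (adjusted p = 0.00972) and Neat1 by -1.93 ± 0.36 (adjusted p = 0.000836), in a comparison where 22.1% of genes passed. All 4 libraries separated by set for both RNAs. Leaving out either heterozygous plate2 library ended the call for Malat1, with -1.13 (adjusted p = 0.0636) without library 1 and -0.88 (adjusted p = 0.159) without library 2. Neat1 passed with any single library left out, but not with wells thinned to 1000 transcripts (-1.18, adjusted p = 0.110).

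In wild type libraries neither RNA passed, although 17.8% of genes did. Malat1 had a log2 fold change of 0.17 ± 0.26 (plate2 over HSC, adjusted p = 0.700) and Neat1 of -0.14 ± 0.44 (adjusted p = 0.859). The sign of the Malat1 value depended on the scaling, since library size without TMM factors gave -0.08 while moving the median over all genes to -0.16, against 0.08 with TMM. That scaling also turned the split of passing genes to 458 higher and 797 lower, against 645 higher and 544 lower with TMM. In heterozygous libraries it gave -1.21 for Malat1 and -2.13 for Neat1, with 556 higher and 899 lower, against 794 higher and 687 lower.

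Within plate2 libraries, both RNAs differed by where a well lay. Barcode numbers were read in steps of 8, which gives 8 positions per library, a layout that was examined only after it was seen to sort cell types. Positions 6 and 7 carried the stem cell markers, at 0.143% to 0.217% of transcripts, while no other position exceeded 0.0639%. In the test over 8 positions (library by position sums, library as a term), 29% of the 2005 genes tested passed. Malat1 passed with an adjusted p of 0.000148 and Neat1 with 0.000256 (edgeR). Neat1 met the count filter of this test only through its sums at positions 6 and 7, where it was high. Its p-value is therefore given as a description. With each well thinned to 1000 transcripts, 110 genes were left to test and 5 passed. Malat1 then did not pass (adjusted p = 0.251, edgeR), with a log2 difference at positions 6 and 7 of 0.90, and Neat1 was below the count filter.

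Malat1 at positions 6 and 7 together took 0.518% and 0.467% of transcripts in the heterozygous plate2 libraries and 0.561% and 0.662% in the wild type ones. At the other 6 positions it took 0.276% and 0.221% in the heterozygous libraries and 0.201% and 0.357% in the wild type ones. The stem cell marker positions were thus higher in 4 of 4 libraries, and their values did not overlap with the pooled values of the other positions. The log2 difference was 1.24 ± 0.21 (SE), given as a description since positions 6 and 7 were singled out after their values were seen. Erythroid markers moved with this contrast too: all 10 that were tested passed over positions and 9 of them were lower at positions 6 and 7, with a median log2 difference of -2.64, and their part in the Malat1 and Neat1 values was not tested. Single other positions could be as high in Malat1: position 5 had a median of 0.472% over libraries from 11 wells, and position 4 of wild type plate2 library 2 had 0.881% from 3 wells with a mean of only 3131 transcripts. The lowest median was 0.145% at position 8, from 17 wells. Of these, 3 were in heterozygous plate2 library 1 and held 5075 transcripts, 2 of them Malat1 and 65.1% predicted gene models. Another 3 were in heterozygous plate2 library 2.

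In transcripts per well the same contrast was smaller, because wells at positions 6 and 7 had a lower mean depth in 4 of 4 libraries. In wild type plate2 library 2 the means were nearly equal, 10066 transcripts at positions 6 and 7 and 10379 at the others. By median, wells at positions 6 and 7 of that library were the deeper ones, with 9505 transcripts against 7023. Malat1 gave 42 and 50 transcripts per well at positions 6 and 7 of the heterozygous libraries and 54 and 67 in the wild type ones. At the other positions it gave 48 and 36 in the heterozygous libraries and 31 and 37 in the wild type ones. In heterozygous plate2 library 1, then, the number per well was lower at positions 6 and 7 although the share was higher, with a mean of 8115 transcripts per well there and 17473 elsewhere. Depth differed with position, least by mean in wild type plate2 library 2. The test at equal depth is the one with thinned wells, in which Malat1 did not pass, and only 5 of 110 genes did. Thinned wells held a median of 5 Malat1 transcripts at positions 6 and 7 and of 2 at the others. By library the medians were 5 and 2, and 3 and 2, in the heterozygous libraries. They were 5 and 2, and 7 and 3, in the wild type ones. The part of depth in the difference was not tested.

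Neat1 at positions 6 and 7 took 0.0174% and 0.0238% of transcripts in the heterozygous plate2 libraries and 0.0232% and 0.0127% in the wild type ones. At the other positions it took 0.00204% and 0.00278% in the heterozygous libraries and 0.00328% and 0.0113% in the wild type ones. In 3 libraries the values stand far apart, and in wild type plate2 library 2 they are nearly equal, from 23 and 27 transcripts. The log2 difference over libraries was 2.40 ± 0.37 (SE), again a description. In that library 12 of the 27 came from the 5 wells of position 8, at 0.0311%, where mature neutrophil markers made up 2.20% of transcripts and stem cell markers were at 0. Position 8 of wild type plate2 library 1 had 2.45% mature neutrophil markers and a Neat1 share of 0.00258%.

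**Figure D2:**
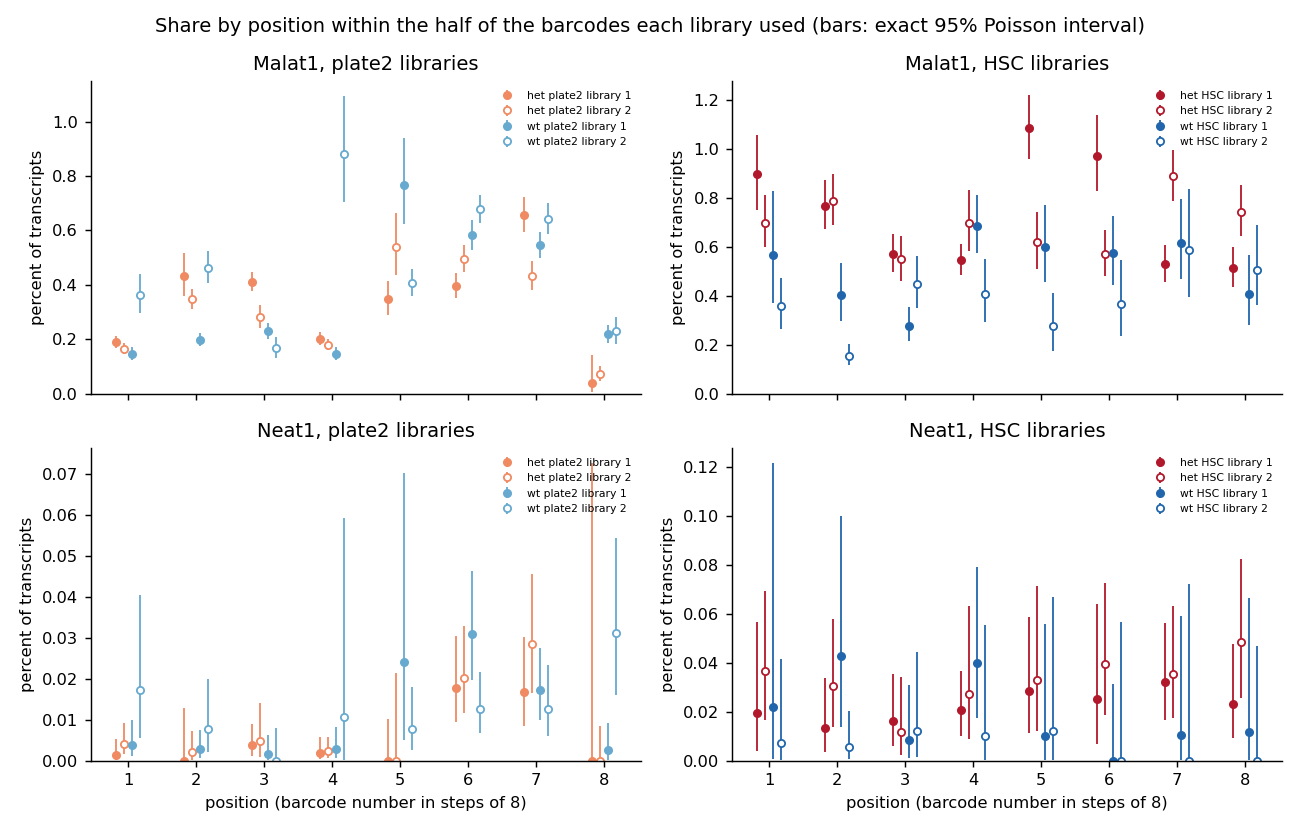
Share of transcripts (percent, axes from 0) at each of 8 positions for Malat1 (upper panels) and Neat1 (lower panels) in plate2 and in HSC libraries. Each library has 1 point with its exact 95% binomial interval (labelled Poisson in the figure title). In plate2 libraries Malat1 lies between 0.396% and 0.677% at positions 6 and 7 and the median of position 8 is 0.145%, from 17 wells. HSC medians lie between 0.499% and 0.634% at every position.

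Counted by wells, Neat1 was found in 48 of 66 wells (72.7%) at positions 6 and 7 and in 39 of 120 wells (32.5%) at the others, with a median of 9185 transcripts at positions 6 and 7 and of 12962 at the others. Thinned to 1000 transcripts, it was found in 13 of 66 (19.7%) and 7 of 120 (5.83%). By library these thinned shares were 17.6% and 3.57%, and 30.8% and 6.06%, in the heterozygous libraries. They were 27.8% and 0% in wild type plate2 library 1. In wild type plate2 library 2 the order was reversed, with 1 of 18 wells (5.56%) and 4 of 23 (17.4%). Malat1 was found in all 66 wells at positions 6 and 7 and in 94.2% of the 120 others. Of the 16 kept wells with at least 4 Neat1 transcripts, 13 were plate2 wells and 10 of those lay at positions 6 and 7. The other 3 were at position 1 or 8 of wild type plate2 library 2, and the pair at position 8 held 521 and 196 transcripts of mature neutrophil markers. For 3 barcodes the well was among the 16 both in heterozygous plate2 library 2 and in wild type plate2 library 1, which used the same 96 barcodes. Whether transcripts crossed between those libraries was not tested.

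**Figure D3:**
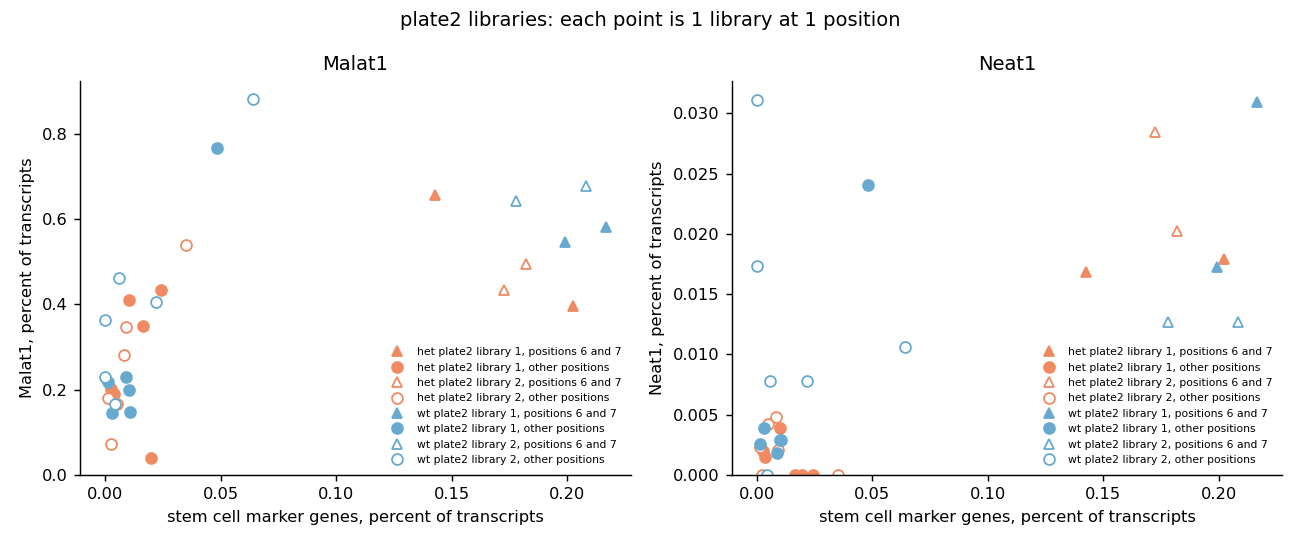
Malat1 and Neat1 shares against the summed share of 10 stem cell marker genes in plate2 libraries, all in percent of transcripts, with 1 point per library and position and triangles for positions 6 and 7. The triangles lie at 0.143% to 0.217% stem cell markers and apart from the other points, of which 7 lie within or above the range of the triangles for Malat1 and 3 for Neat1, the highest at 0.881% and 0.767% Malat1 and at 0.0311% Neat1.

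In the HSC libraries neither RNA passed over positions. There, 0.26% of the 385 genes tested over positions passed, and Malat1 had an adjusted p of 0.9996 (edgeR), with median shares from 0.499% to 0.634% by position. Neat1 was below the count filter, with medians from 0.0120% to 0.0239%. Stem cell markers made up at least 0.102% of transcripts at every position of every HSC library.

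When only positions 6 and 7 of the plate2 libraries were set against the HSC libraries, the difference in heterozygous libraries was -0.25 for Malat1 (adjusted p = 0.621) and -0.18 for Neat1 (adjusted p = 0.851), against -1.01 and -1.93 with all wells. In wild type libraries Malat1 then passed as higher in plate2, at 0.83 (adjusted p = 0.0273), and Neat1 had 0.75 (adjusted p = 0.319). The calls for lower levels in heterozygous plate2 libraries were not made with these 2 positions alone, a choice made after the values were seen. Fewer wells were summed in that fit, and 3880 genes were tested, against 6690 with all wells. The cause of the change was not tested.

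Depth was examined within libraries, since a share can depend on how many transcripts a well gave. Wells were split at each library's median. Malat1 averaged 0.401% in the deeper wells and 0.592% in the shallower wells, a difference of -0.191 ± 0.132 percentage points (SD, n = 8 libraries), with lower shares in the deeper wells of 7 of 8 libraries (p = 0.0156, adjusted p = 0.0469 over 6 tests, exact two-sided sign-flip test over libraries). The exception was heterozygous HSC library 2, with 0.730% in the deeper and 0.646% in the shallower wells. Neat1 averaged 0.0113% in the deeper and 0.0225% in the shallower wells, lower in 8 of 8 libraries (p = 0.00781, the smallest this exact test can give, adjusted p = 0.0469).

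That difference changed with how wells were pooled. As a median over wells in place of a pooled share, it was -0.0034 percentage points for Malat1 (exact p = 0.961) and 0.0031 for Neat1 (exact p = 0.625). With wells thinned to 1000 transcripts it was -0.0568 for Malat1 (exact p = 0.242) and -0.0090 for Neat1 (exact p = 0.125). Split within each position instead of within the library, it was -0.164 and -0.0116, with the same exact p of 0.0156 and 0.00781. Over the wells of a library, Spearman's rho between depth and share ran from -0.36 to 0.18 for Malat1 and from -0.19 to 0.27 for Neat1 (45 to 68 wells), values that share their denominator with the depth.

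**Figure D4:**
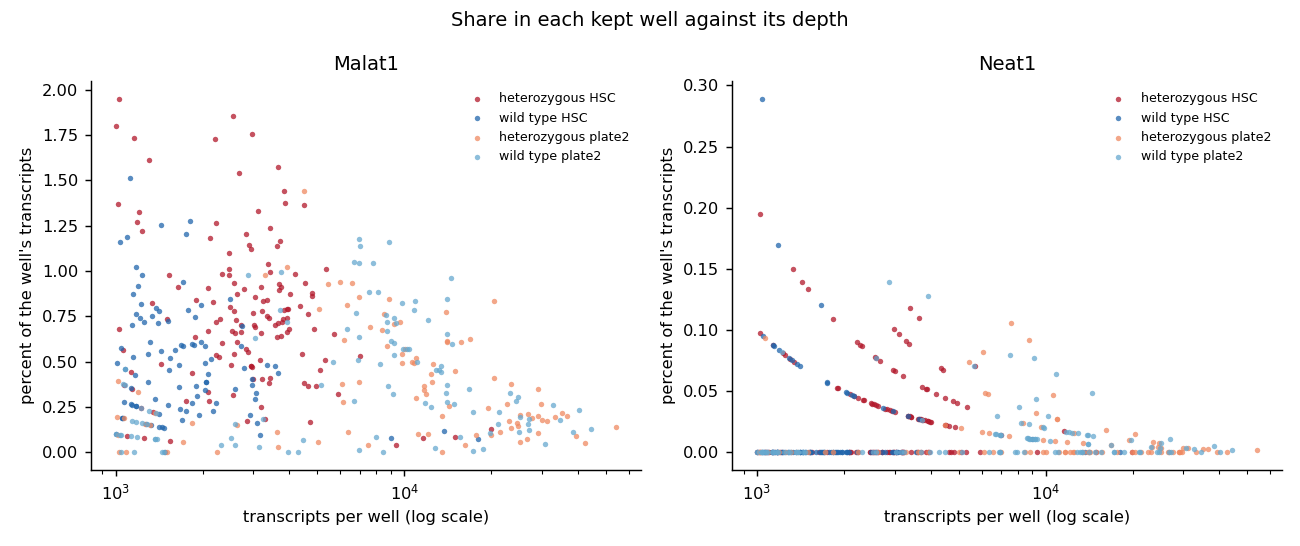
Malat1 and Neat1 shares (percent) of each of 436 kept wells against the well's transcripts on a log scale, coloured by group. Plate2 wells extend to greater depth, and single wells range up to 1.95% Malat1 and 0.289% Neat1.

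Mitochondrially encoded genes, whose share rises in damaged cells that have lost cytoplasmic RNA, made up 13.4% to 18.03% of transcripts. With those genes left out of the total, Malat1 averaged 0.484% in the wells above their library's median mitochondrial share and 0.576% in the others, a difference of -0.092 ± 0.160 percentage points (SD, n = 8), lower in 5 of 8 libraries (exact p = 0.141, adjusted 0.281). Neat1 averaged 0.0159% and 0.0176%, lower in 6 of 8 libraries (exact p = 0.641, adjusted 0.641). For neither RNA was the difference larger than the spread between libraries. Heterozygous HSC libraries 1 and 2 went in opposite directions for both RNAs, Malat1 with 0.612% and 1.03% in library 1 but 0.869% and 0.771% in library 2.

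**Figure D5:**
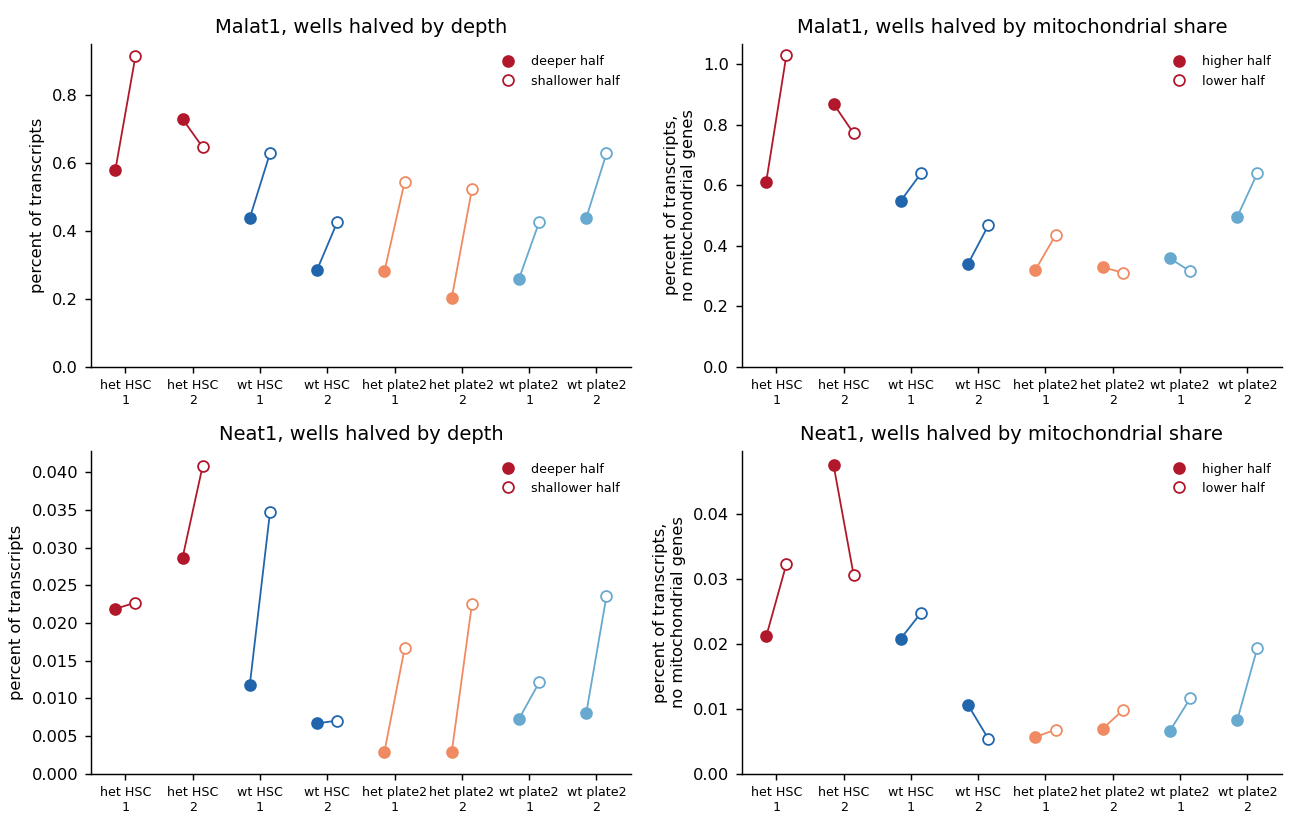
Shares (percent, axes from 0) of Malat1 and Neat1 in each library's wells split at the median by depth (left) and by mitochondrial share (right), with filled points for the deeper or higher wells and open points for the others. By depth, 7 of 8 lines for Malat1 and 8 of 8 for Neat1 run up to the shallower wells, and by mitochondrial share they run both ways.

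The shares of the RNAs correlated most from well to well in 3 of the 4 plate2 libraries. Spearman's rho between their shares was 0.42 and 0.17 in the heterozygous plate2 libraries and 0.55 and 0.51 in the wild type plate2 libraries, while the HSC libraries had values from -0.12 to 0.24 (45 to 68 wells each). Both shares have the same denominator and both differ by position in plate2, so these are descriptions. With wells thinned, centred on their library and pooled, Pearson's r between them was 0.098 over 436 wells.

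The genes whose thinned levels were most like Malat1 over those wells were Hlf (r = 0.24), a transcription factor of stem cells, H2-D1 (0.23) and B2m (0.21), both chains of MHC class I, Eef1a1 (0.20), a translation elongation factor, and Laptm5 (0.19), a lysosomal membrane protein of blood cells. The lowest correlations of Malat1 were as large, with mt-Nd1 (-0.29), mt-Nd5 (-0.25) and mt-Nd4 (-0.24), mitochondrially encoded subunits of respiratory complex I, all drawn from the same fixed total per well. For Neat1, with few transcripts, the highest were Ifitm1 (0.14), Rps21 (0.14), Ifitm3 (0.13), S100a9 (0.11) and Ddx5 (0.11). Ifitm1 and Ifitm3 encode membrane proteins induced by interferon, and Ddx5 an RNA helicase. In the plate2 test over positions, where 29% of all genes passed, Hlf, H2-D1, B2m, Laptm5, Ifitm1, Ifitm3 and Ddx5 passed. Their log2 differences at positions 6 and 7 ran from 0.68 for Ddx5 to 6.35 for Hlf. Eef1a1 and Rps21 did not pass (adjusted p of 0.788 and 0.652, edgeR), and S100a9 was below the count filter. All were picked by correlation over wells that include the plate2 wells, and Hlf is also a stem cell marker. Their passing is therefore no separate support.

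Genes of the nuclear bodies that hold these RNAs were also counted over positions, where 29% of all genes passed. Of 29 listed paraspeckle proteins 15 were tested over plate2 positions and 2 passed, Smarca4, a chromatin remodeller (log2 difference at positions 6 and 7 of 0.76 ± 0.18), and Hnrnpr, an RNA binding protein (0.51 ± 0.18), and the list's median was -0.13, against 0.04 over all genes. Of 30 nuclear speckle proteins 25 were tested and 4 passed, namely Clk1, a kinase of splicing factors (1.15 ± 0.27), U2af1 (-0.19 ± 0.27), which recognises 3′ splice sites, and the splicing factors Luc7l2 (0.58 ± 0.18) and Srsf5 (0.79 ± 0.21), with a median of 0.04. Of 38 other long noncoding RNAs 5 were tested and Gas5 (0.06 ± 0.17) and Kcnq1ot1 (0.46 ± 0.21) passed. The share of passing members was below the 29% of all genes for both protein lists and above it for the other long noncoding RNAs. Few members were tested and no list was tested as a set, so nothing about the lists is read from these counts.

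Between genotypes, no member of the paraspeckle, nuclear speckle or other long noncoding RNA list passed in either set, of 25, 30 and 17 tested, where 0.0149% of all genes passed in HSC and 0.553% in plate2 libraries, so that nothing about these lists can be read from it. Between plate2 and HSC libraries, where Malat1 and Neat1 were lower in heterozygous plate2, 4 of 25 tested paraspeckle proteins were higher there (11.9% of all genes) and 2 lower (10.3% of all genes), as were 2 and 0 of 30 speckle proteins and 5 and 1 of 17 other long noncoding RNAs. Hnrnpk, a paraspeckle protein, was higher in heterozygous plate2 with a log2 fold change of 0.91 ± 0.27 (adjusted p = 0.0186), and Snhg8, a small nucleolar RNA host gene, with 2.23 ± 0.46 (adjusted p = 0.00172). Among those lower there were Cpsf7, a paraspeckle protein, with -0.95 ± 0.32 (adjusted p = 0.0361, edgeR), and the noncoding RNA Firre with -2.33 ± 0.57 (adjusted p = 0.00655, edgeR). In wild type libraries, where 9.64% of all genes were higher and 8.13% lower, the corresponding counts were 3 higher and 2 lower, 9 and 1, and 8 and 1. Kcnq1ot1, an imprinted noncoding RNA, was higher in wild type plate2 at 1.20 ± 0.27 (adjusted p = 0.00476), and Snhg1 was lower there at -1.53 ± 0.31 (adjusted p = 0.00201, edgeR). Of 9 tested stem cell markers, 8 were lower in heterozygous plate2 and 6 in wild type plate2.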

How the data were processed

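The deposited values are expected counts: for each gene and barcode the number k of distinct molecular identifiers was turned into a count estimated as 4096 times the natural log of 4096/(4096 - k), which holds within 3.6e-12. Per the submitters' processing notes, BWA 0.6.2-r126 and mm10 were used; annotation and counting tool were not given in the sources used here.

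Shares are summed transcripts over all named genes of kept wells, without the 70 spike-in rows. Every row had a gene name. Since cells were sorted into wells, doublets were not called. Library sums were rounded and given to edgeR 4.0.16 (R 4.3.3; filterByExpr, TMM, quasi-likelihood test), with DESeq2 1.42.0 as an alternative. Adjusted p of single genes are from edgeR. Exact tests used Python 3.11.15. Fits were tested on simulated data. Libraries of a group differed by more than counting noise (chi-square per degree of freedom of 2.21 to 4.48), so each was counted as 1 sample.

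The genes, lists and comparisons were chosen with earlier results of these data known. Genes named beside Malat1 and Neat1 are the 5 most correlated with each (mean of at least 0.5 thinned transcripts, no predicted models) and up to 4 passing members of a list by p, of which examples are given.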

Additional observations from a re-analysis of the deposited data

Results flagged for a closer look

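Transcripts of both RNAs appeared in barcodes under 1000 transcripts, which were used only in the alternative with all barcodes. In barcodes under 1000 transcripts that lay outside a library's own set of 96, Malat1 was counted 467 times over the 8 libraries, at 0.202% to 0.398% of those barcodes' transcripts, and Neat1 20 times, at 0.00503% to 0.0255%. These libraries hold no control wells, so the level set against them is the 3 counts that a count of 0 allows. That level belongs to a single count, so sums over many barcodes can exceed it easily, and nothing is concluded from it.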

How the results depend on the processing

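Of the comparisons of Malat1 and Neat1, those of genotype kept their side of the threshold under every alternative run except Malat1 in HSC libraries, which passed with wells of at least 2000 transcripts (1.28). In plate2 the genotype value ran from -0.83 to -0.05 for Malat1 and from -1.05 to -0.49 for Neat1 without 1 library. Added after seeing the data were positions 6 and 7 of plate2, library size alone, the split within each position, the tests over positions and the crossed pairing. The cause of a change was not tested.

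For Neat1 over both sets, near 0, the sign turned with DESeq2 (0.047), no count filter (0.049), all barcodes (0.082), thinned wells (0.41), no predicted gene models (0.0070), no mitochondrial genes (0.020), the crossed pairing (0.0064), library size alone (0.11) and positions 6 and 7 (0.52), and without 1 library it ran from -0.32 to 0.31. Malat1 over both sets ran from -0.11 to 0.38 without 1 library. At positions 6 and 7, Neat1 in plate2 turned to 0.083. For plate2 over HSC in wild type libraries, Malat1 turned with thinned wells (-0.099) and library size alone (-0.082), had 0.83 at positions 6 and 7, and ran from -0.25 to 0.53 without 1 library. Neat1 there turned with no filter (0.0051), at least 2000 transcripts (0.57) and positions 6 and 7 (0.75), and ran from -0.66 to 0.79. In heterozygous libraries the calls ended at positions 6 and 7, with -0.25 for Malat1 and -0.18 for Neat1, and for Neat1 with thinned wells (-1.18). Malat1 ran there from -1.13 to -0.88.

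The depth difference ended as a median over wells (Malat1 -0.0034, Neat1 0.0031) and with thinned wells (-0.057 and -0.0090). The mitochondrial difference of Neat1 turned as a median (0.0012) and with thinned wells (0.0039). Over positions, the adjusted p of Malat1 was 0.251 in plate2 with thinned wells, where Neat1 was below the filter, and 0.9997 in HSC libraries with at least 2000 transcripts, where the difference at positions 6 and 7 changed sign. Neat1 gave no value over HSC positions except with no filter.

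Counts of passing genes moved more. For genotype in HSC libraries, 1 gene became 19 with DESeq2, 40 with no filter, 17 with at least 2000 transcripts, 13 with all barcodes, 9 with thinned wells, 3 with library size alone and 0 without predicted models or with the set's own libraries, and 0 to 38 without 1 library. For genotype in plate2, 37 became 75 with no filter, 4 thinned, 8 without predicted models, 21 with library size alone and 64 with its own libraries, and 0 to 60 without 1 library. For the difference between sets, 0 became 21 with no filter and 1 with all barcodes, and 0 to 37 without 1 library. Over both sets, 9 became 64 with no filter, 15 with all barcodes, 5 thinned and 5 without predicted models, and 1 to 42 without 1 library. For plate2 over HSC in wild type, 1189 became 713 with DESeq2, 568 with at least 2000 transcripts, 1830 with all barcodes and 292 thinned, and 442 to 1365 without 1 library. In heterozygous libraries 1481 became 793 with DESeq2 and 252 thinned, and 489 to 1797 without 1 library. Over plate2 positions, 582 became 1483 with no filter and 5 thinned, and 242 to 669 without 1 library. Over HSC positions, 1 became 20 with no filter and 2 without predicted models, and 0 to 6 without 1 library. At positions 6 and 7 the filter left 3880 genes, of which 0.0258% passed for genotype in plate2, against 0.553% of 6690 with all wells, 0.0258% over both sets, against 0.135%, 4.61% for plate2 over HSC in heterozygous libraries, against 22.1%, and 15.1% (585 genes) in wild type libraries, against 17.8%.

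Replicate numbers are not known to pair these libraries: deviations of same-numbered libraries correlated at -0.13 in HSC and -0.073 in plate2. Same-numbered HSC libraries used the same 96 barcodes. In plate2, heterozygous library 1 shared its set with wild type library 2, and heterozygous library 2 with wild type library 1. Neither block below follows that use of barcodes in both sets, so a pairing by barcode set was not tested. With replicate number as a block, 10 genes passed for genotype in plate2 and 5 over both sets, and no call of Malat1 or Neat1 changed. Crossed numbers in the HSC libraries gave 8 genes for genotype in HSC and 2 for the difference between sets. Where 1 library is left in a group, it is assumed to vary like the other groups. Depth limits Neat1, at 7 to 66 transcripts per library.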
